A study of Saccharomyces cerevisiae with 72 samples.

Results

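The 10 histone genes of budding yeast were followed through polyploidization, mitotic arrest and ordinary cycling. They were chosen by systematic name: *HTA1* (YDR225W) and *HTA2* (YBL003C) for H2A, *HTB1* (YDR224C) and *HTB2* (YBL002W) for H2B, *HHT1* (YBR010W) and *HHT2* (YNL031C) for H3, *HHF1* (YBR009C) and *HHF2* (YNL030W) for H4, *HTZ1* (YOL012C) for the variant H2A.Z and *HHO1* (YPL127C) for the linker histone. All 10 were found among the 6843 features of the count table, and all 10 passed the filter on low counts in both tests. RNA was sequenced in 72 libraries, 36 in each of 2 tests, with 3 replicate cultures per condition. All strains were of W303 background, and the *cdc24-1 swe1Δ* strain was derived from S288C by backcrossing. In the *mad1Δ bub2Δ* test, at 30 °C, polyploid cells were *mad1Δ bub2Δ* cells in nocodazole, which depolymerizes microtubules, arrested cells were of another strain, labelled WT (*MAD1 BUB2*), in nocodazole, and cycling cells were *mad1Δ bub2Δ* cells in DMSO. In the *cdc24-1 swe1Δ* test, polyploid cells were *cdc24-1 swe1Δ* cells at 37 °C, which cannot polarize to bud, arrested cells were *cdc24-1 cdc20-1 swe1Δ* cells at 37 °C, of mating type α where the others were **a**, and cycling cells were *cdc24-1 swe1Δ* cells labelled 25 °C. There were samples every 4 h from 0 to 16 h for polyploid and arrested cells, but for cycling cells at the first and the last time alone. By the study's methods the shift to 37 °C was made at the start. Changes from 0 h in polyploid and arrested cells of the *cdc24-1 swe1Δ* test therefore also hold a change of temperature, which cycling cells did not have. The part of temperature cannot be told apart from that of polyploidization or arrest. By the same methods nocodazole was added at the start of the *mad1Δ bub2Δ* test, to polyploid and arrested cells but not to cycling cells. Changes from 0 h in polyploid and arrested cells of that test therefore also hold the drug. So do their differences from cycling cells, and the part of the drug cannot be told apart either.

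Core histones wrap DNA into nucleosomes, and yeast carries each core histone gene in a pair of copies, arranged as divergent pairs that share a promoter. Their transcription is confined to late G1 and S phase, when new DNA is packaged, and outside S phase the HIR corepressor holds down every pair but *HTA2–HTB2*. The activator Spt10 binds upstream activating sequences (UAS) in these promoters. H2A.Z, placed by the SWR1 complex, flanks promoters, and Hho1 binds linker DNA. Unlike most animal histone mRNAs, yeast histone mRNAs are polyadenylated and so are captured by poly(A) selection.

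The shared promoters are shown because 8 of the 10 members lie in pairs that share one. The genes lie at chrIV:914317-914712 (*HTB1*, minus strand) and chrIV:915530-915928 (*HTA1*, plus strand), chrII:235394-235792 (*HTA2*, minus) and chrII:236492-236887 (*HTB2*, plus), chrII:255373-255684 (*HHF1*, minus) and chrII:256331-256741 (*HHT1*, plus), and chrXIV:575640-576050 (*HHT2*, minus) and chrXIV:576727-577038 (*HHF2*, plus) in the R64 assembly. *HTZ1* lies alone at chrXV:303579-303983 (minus strand) and *HHO1* at chrXVI:308828-309604 (minus strand). No annotated gene overlapped the coding sequence of a member. The regions between the paired coding sequences held 817 bases (*HTB1–HTA1*), 699 bases (*HTA2–HTB2*), 646 bases (*HHF1–HHT1*) and 676 bases (*HHT2–HHF2*), with no gene annotated inside. Each of the 4 regions held the Spt10 UAS consensus (TTCC, 6 bases of any kind, TTC, 1 base of any kind and C), searched on both strands. Stretches of 160 bases of the plus strand around these matches, from the RefSeq genome of R64, are printed 5′ to 3′ with the matches in capitals:
HTA1-HTB1, chrIV:915045-915204: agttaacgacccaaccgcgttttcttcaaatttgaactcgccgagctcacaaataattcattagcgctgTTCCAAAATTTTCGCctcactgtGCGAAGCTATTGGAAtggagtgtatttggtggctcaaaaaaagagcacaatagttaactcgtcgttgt
HTA2-HTB2, chrII:236028-236187: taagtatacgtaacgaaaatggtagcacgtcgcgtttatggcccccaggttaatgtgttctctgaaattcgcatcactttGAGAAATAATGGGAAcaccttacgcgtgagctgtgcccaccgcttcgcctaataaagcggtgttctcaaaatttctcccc
HHT1-HHF1, chrII:255864-256023: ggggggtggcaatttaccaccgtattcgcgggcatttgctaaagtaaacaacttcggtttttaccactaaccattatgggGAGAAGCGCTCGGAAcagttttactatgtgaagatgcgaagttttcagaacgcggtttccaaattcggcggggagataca
HHT2-HHF2, chrXIV:576266-576425: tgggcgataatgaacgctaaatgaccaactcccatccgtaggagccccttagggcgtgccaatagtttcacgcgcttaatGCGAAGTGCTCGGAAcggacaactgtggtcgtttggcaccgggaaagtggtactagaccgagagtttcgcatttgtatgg

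The *HTA1–HTB1* stretch held 2 matches, 1 on each strand, and the others 1 match each, on the minus strand. In the 600 bases before the coding start, the consensus was found for 8 of the 10 members and for 3.47% of 5999 coding genes. These 8 are the core genes, which share 4 regions, so each region was counted for both its genes. The UAS are known from these same promoters, so the matches describe the regions and are no test. *HTZ1* and *HHO1* had no match in that window. The MCB element ACGCGT, the site of the G1/S factor MBF, was found in the *HTA2–HTB2* region alone among the 4, and in the windows of 6.33% of coding genes. The SCB element CACGAAA, the site of the G1/S factor SBF, was found upstream of *HTZ1* alone among the members, against 8.33% of coding genes. None of these matches overlapped another.

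Copies of the same histone gene are close in sequence, which limits how reads can be assigned to them. The coding sequences of *HTA1* and *HTA2* were 93.7% identical (25 of 399 bases differ), of *HTB1* and *HTB2* 87.9% (48 of 396), of *HHT1* and *HHT2* 93.2% (28 of 411) and of *HHF1* and *HHF2* 97.4% (8 of 312). The most divergent 60-base window of the closest pair, bases 163 to 222 of the coding sequence, is shown beside that of the H2A pair, bases 337 to 396, with differing bases in capitals:
HHF1: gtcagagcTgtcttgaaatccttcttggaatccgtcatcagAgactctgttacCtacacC
HHF2: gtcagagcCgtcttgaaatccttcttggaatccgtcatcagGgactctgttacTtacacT
HTA1: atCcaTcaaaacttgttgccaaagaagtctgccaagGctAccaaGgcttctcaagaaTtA
HTA2: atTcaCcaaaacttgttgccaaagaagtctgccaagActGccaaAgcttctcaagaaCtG

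The H4 window held 4 differences and the H2A window 7. Reads that fall between such bases match both copies and are divided by Salmon's estimation, so the division of counts between copies, above all between *HHF1* and *HHF2* (longest shared run 80 bases), is uncertain, and less so the sum over both copies.

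Total counts per library ran from 1597321 to 9987276 (median 6918124). The lowest count of a core histone gene in any library was 95, and of *HTZ1* or *HHO1* 66. *BUB2* had 0 counts in all 21 polyploid and cycling libraries of the *mad1Δ bub2Δ* test and 46 to 117 in its arrested libraries. *MAD1* had 121 to 349 counts in those 21 libraries and 372 to 1012 in the arrested ones. *SWE1* had 0 counts in the polyploid and cycling libraries of the *cdc24-1 swe1Δ* test. In 1 of the 15 arrested libraries there (16 h, replicate 2), *SWE1* had 152 counts and the **a**-cell receptor gene *STE2* 3472 counts, against 81 and 111 in the other cultures at 16 h, so that library goes against its label, and results at 16 h in those arrested cells are given with and without it. In 1 polyploid library of that test (12 h, replicate 1), ribosomal RNA took 47.6% of the counts. Levels are given as CPM, counts scaled to a common library size by TMM within each test. They are relative to the other transcripts of the library, so fewer cells that express a gene and less of its RNA per cell cannot be told apart, and *mad1Δ bub2Δ* cultures in nocodazole also hold daughters without a nucleus.

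Mean DNA content, as given in the sample labels, reached 442 ± 14.5 kAU (1 kAU is 1000 arbitrary units) in polyploid *mad1Δ bub2Δ* cells at 16 h, against 102 ± 4.79 at 0 h (SD, n = 3). Arrested cells of that test had 97.9 ± 1.03 at 16 h and cycling cells 85.7 ± 2.50. Polyploid *cdc24-1 swe1Δ* cells reached 264 ± 16.7 at 16 h, against 108 ± 4.46 at 0 h.

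Per unit length (TPM over the 72 libraries), the order of median levels was *HHF2* 2063 (692 to 5568), *HHT2* 1987 (1061 to 3867), *HHT1* 1454 (532 to 3164), *HTB1* 1449 (611 to 3573), *HHF1* 1436 (378 to 3879), *HTA1* 1043 (382 to 2314), *HTA2* 605 (68.1 to 1529), *HTB2* 538 (89.0 to 1378), *HTZ1* 106 (52.8 to 199.8) and *HHO1* 86.6 (37.6 to 174), with the range in parentheses. The ranges of all neighbours in this order overlapped. The order differed between conditions. In arrested cells at 4 h *HHT2* had 1084 ± 20.1 TPM and *HHF2* 703 ± 11.3 TPM with *MAD1 BUB2*, and 1294 ± 116 and 785 ± 28.5 TPM with *cdc24-1 cdc20-1 swe1Δ* (SD, n = 3), so that *HHT2* stood above *HHF2* there. Over all libraries the step with the largest ratio lay between *HTB2*, the lowest core gene, and *HTZ1*.

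Histone transcripts fell in arrested *MAD1 BUB2* cells. All 10 members were lower at 4 h of nocodazole than at 0 h, against 17.9% of the 6025 genes tested, and 9, 10 and 10 members were lower at 8, 12 and 16 h, against 24.5%, 25.6% and 26.1% of genes. No member was higher at any of these times. The 8 core genes together made up 876 ± 68.5 CPM at 4 h and 1364 ± 125 CPM at 16 h, against 3202 ± 331 CPM at 0 h (SD, n = 3). Their median log2 change was -1.88, -0.92, -1.10 and -1.22 at 4, 8, 12 and 16 h, where the median of all genes was 0.02 to 0.09. Members were called at a Benjamini-Hochberg adjusted p under 0.05 in edgeR's quasi-likelihood test, here and for all changes below.

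**Figure D1:**
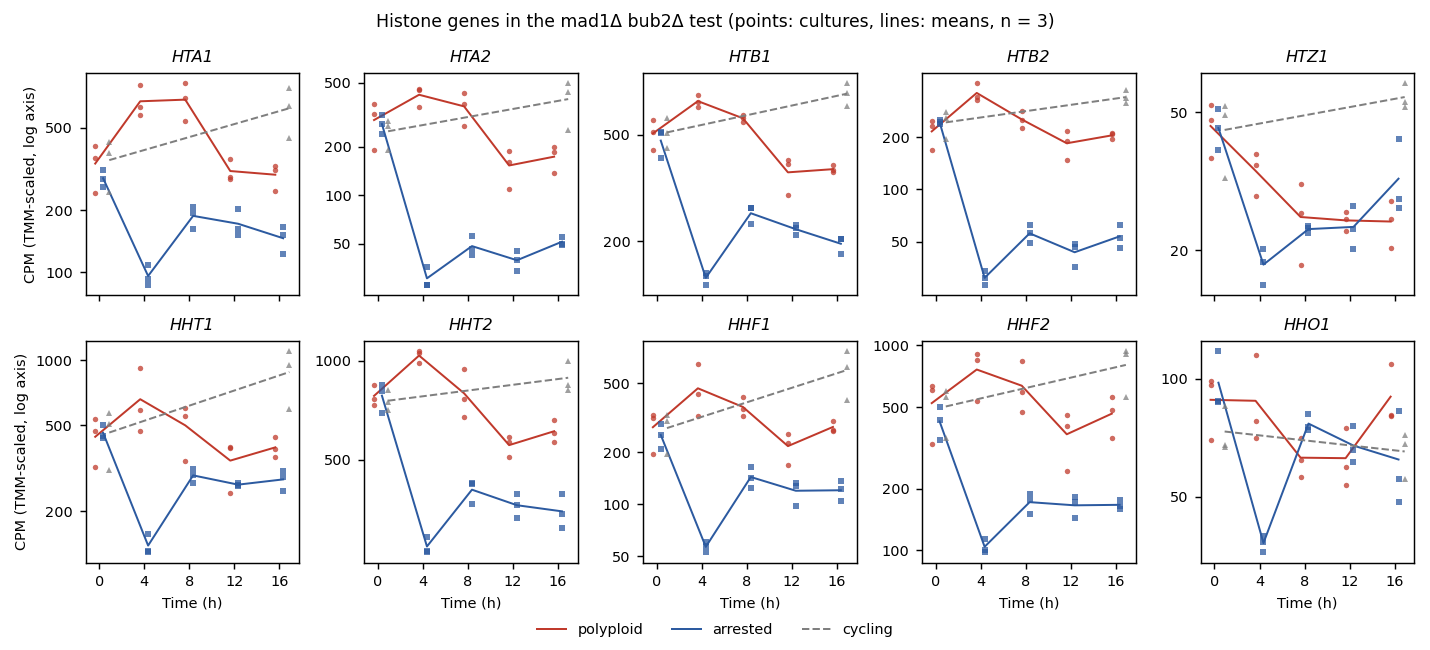
Levels of the 10 histone genes (CPM after TMM scaling, log axis) against time (h) in polyploid (red circles), arrested (blue squares) and cycling cells (grey triangles) of the *mad1Δ bub2Δ* test, with each culture as a point and means of 3 cultures as lines. In arrested cells every gene had its lowest mean at 4 h, and *HTA2* and *HTB2* then stayed under 63 CPM in every culture.

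The H2A–H2B pair *HTA2–HTB2* fell furthest. *HTA2* had 35.8, 27.6 and 27.7 CPM at 4 h and 55.0, 49.1 and 49.8 CPM at 16 h in arrested cells, against 313, 239 and 278 CPM at 0 h. *HTB2* had 33.7, 30.9 and 28.1 CPM at 4 h and 46.2, 52.4 and 62.2 CPM at 16 h, against 243, 237 and 252 CPM at 0 h. For both genes the cultures at each later time were all far below those at 0 h. The log2 change of *HTA2* was -3.19 ± 0.26 (SE, adjusted p = 6.79e-11) at 4 h and -2.43 ± 0.25 (SE, adjusted p = 1.32e-09) at 16 h. That of *HTB2* was -2.98 ± 0.17 (SE, adjusted p = 1.01e-13) at 4 h and -2.19 ± 0.17 (SE, adjusted p = 2.35e-12) at 16 h.

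The other core genes fell less, and their means at 8, 12 and 16 h lay above those at 4 h. *HTA1*, the other H2A gene, had 109, 92.6 and 87.0 CPM at 4 h and 163, 207 and 193 CPM at 8 h, against 284, 258 and 314 CPM at 0 h. Its log2 change was -1.57 ± 0.22, -0.60 ± 0.21, -0.73 ± 0.21 and -0.96 ± 0.21 (SE) at 4, 8, 12 and 16 h. Its H2B partner *HTB1* changed by -1.70 ± 0.13 at 4 h and -1.28 ± 0.13 at 16 h. *HTB1* had 152, 149 and 138 CPM at 4 h, against 511, 408 and 505 CPM at 0 h, so that its cultures at 4 h lay far below those at 0 h. Among the H3 and H4 genes the change at 4 h ran from -1.52 (*HHT2*) to -2.15 (*HHF1*), and at 16 h from -0.72 (*HHT1*) to -1.35 (*HHF2*). *HHF1*, an H4 gene, had 60.4, 57.2 and 52.6 CPM at 4 h, against 293, 209 and 253 CPM at 0 h, and its cultures did not overlap between these times. *HHF2*, the other H4 gene, had 114, 101 and 97.6 CPM at 4 h and 159, 177 and 164 CPM at 16 h, against 499, 345 and 432 CPM at 0 h. *HHT2*, an H3 gene, had 292, 262 and 264 CPM at 4 h and 310.0, 342 and 394 CPM at 16 h, against 843, 694 and 809.6 CPM at 0 h. *HHT1*, the other H3 gene, had 156, 131 and 129 CPM at 4 h and 248, 288 and 307 CPM at 16 h, against 499, 447 and 438 CPM at 0 h. In all 3 genes the cultures at 4 h were below those at 16 h, which were below those at 0 h.

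The members outside the core genes also fell. *HTZ1*, the H2A.Z gene, had 18.5, 20.2 and 15.9 CPM at 4 h, against 51.3, 38.9 and 45.0 CPM at 0 h, a log2 change of -1.31 ± 0.21 (SE, adjusted p = 7.04e-06). *HHO1*, the linker histone gene, had 36.1, 38.5 and 39.8 CPM at 4 h and 74.0, 81.3 and 75.5 CPM at 8 h, against 118, 87.5 and 88.0 CPM at 0 h. Its change was -1.36 ± 0.20 (SE, adjusted p = 2.19e-06) at 4 h and -0.35 ± 0.19 (SE, adjusted p = 0.131) at 8 h, the single time and member of the 40 that did not pass the test. At 16 h *HTZ1* was at -0.49 ± 0.20 (SE, adjusted p = 0.0369) and *HHO1* at -0.65 ± 0.19 (SE, adjusted p = 0.00552). On log2 TPM, where the median of all genes rose by 0.83 at 16 h, *HTZ1*, *HHO1* and *HHT1* had changes above 0 but under that median.

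In polyploid *mad1Δ bub2Δ* cells, in the same drug, some histone transcripts were higher at first and some lower later. At 4 h 5 members were higher than at 0 h (13.3% of genes higher) and 0 lower (10.9% of genes lower). At 8 h *HTA1* alone was higher (16.5% of genes higher) and *HTZ1* alone lower (16.0% of genes lower). At 12 h 5 members were lower (16.8% of genes lower) and at 16 h 4 were (21.7% of genes lower), with 0 higher at either time. At 8 h the members' shares lay under those of all genes. The 8 core genes summed to 5043 ± 715, 4163 ± 753, 2489.8 ± 423 and 2796 ± 263 CPM over the 4 later times, against 3374 ± 651 CPM at 0 h (SD, n = 3).

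*HTA1* changed most among the members that rose. It had 805, 630.5 and 578 CPM at 4 h and 693, 819.7 and 538 CPM at 8 h, against 407, 358 and 243 CPM at 0 h. Every culture at 4 and 8 h was above every culture at 0 h, and the log2 change was 1.00 ± 0.21 (SE, adjusted p = 0.00111) at 4 h and 1.03 ± 0.21 (SE, adjusted p = 0.000467) at 8 h. At 12 and 16 h it was at -0.12 and -0.18, neither of which passed the test. *HTB2* rose by 0.74 ± 0.16 (SE, adjusted p = 0.00123) and *HHF1* by 0.75 ± 0.24 (SE, adjusted p = 0.0204) at 4 h. *HHT2* and *HTB1* rose by 0.41 ± 0.13 and 0.40 ± 0.13 (SE) at that time. *HTA2*, *HHT1* and *HHF2* had values of 0.52, 0.58 and 0.54 at 4 h with adjusted p of 0.102, 0.0839 and 0.124.

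At the later times *HTZ1* and *HTA2* fell most in polyploid *mad1Δ bub2Δ* cells. *HTZ1* had 24.6, 20.3 and 27.7 CPM at 16 h, against 52.6, 47.6 and 36.8 CPM at 0 h, with no overlap between cultures. Its log2 change was -0.87 ± 0.20, -0.91 ± 0.20 and -0.92 ± 0.20 (SE) at 8, 12 and 16 h, and it was lower at each. *HTA2* had 161, 188 and 109 CPM at 12 h and 185, 199 and 136 CPM at 16 h, against 319, 368 and 192 CPM at 0 h. Its lowest culture at 0 h lay within the range at 16 h but above that at 12 h, and its change was -0.94 ± 0.24 (SE, adjusted p = 0.00224) at 12 h and -0.76 ± 0.24 (SE, adjusted p = 0.00973) at 16 h. *HTB1* and *HHT2* were also lower at both times (-0.44 and -0.36 at 16 h), and *HHO1* at 12 h (-0.49 ± 0.19, SE, adjusted p = 0.0442). Of the 16 calls over the 4 times, 9 remained in number without the polyploid culture of replicate 1. On library totals there were 9 calls and on log2 TPM 8, and *HHT2* at 16 h was then at 0.070 on log2 TPM, where the median of all genes had moved by 0.42.

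The change from 0 h differed between polyploid and arrested cells of the *mad1Δ bub2Δ* test. Arrested cells grow without further genome doubling and serve the study as a control for cell size. All 10 members had a higher change in polyploid than in arrested cells at 4 h (12.0% of genes higher), and 7, 4 and 6 at 8, 12 and 16 h (16.8%, 14.2% and 11.3% of genes higher), with 0 lower. The median difference of the core genes was 2.57, 1.39, 0.66 and 0.95 on the log2 scale, where that of all genes was between -0.10 and -0.01.

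*HTB2* and *HTA2* differed most and at every time. The difference for *HTB2* was 3.72 ± 0.23 (SE, adjusted p = 1.09e-12) at 4 h and 2.11 ± 0.23 (SE, adjusted p = 9.71e-08) at 16 h. At 16 h *HTB2* had 196, 211 and 207 CPM in polyploid cells, against 46.2, 52.4 and 62.2 CPM in arrested cells. For *HTA2* the difference was 3.71 ± 0.35 (SE, adjusted p = 6.94e-09) at 4 h and 1.67 ± 0.34 (SE, adjusted p = 0.000547) at 16 h. *HTB1* and *HHT2* also passed the test at all 4 times, with 0.83 and 0.81 at 16 h. *HHF1* and *HHF2* passed it at 4, 8 and 16 h (1.07 and 1.18 at 16 h), *HTA1* at 4 and 8 h, and *HHT1*, *HTZ1* and *HHO1* at 4 h alone. *HTZ1* had a difference of -0.42 ± 0.29 (SE, adjusted p = 0.299) at 16 h, when it was lower than at 0 h in both kinds of cells. On log2 TPM 16 of the 40 differences were higher and 2 lower, where the median difference of all genes lay between -0.40 and -0.86.

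**Figure D2:**
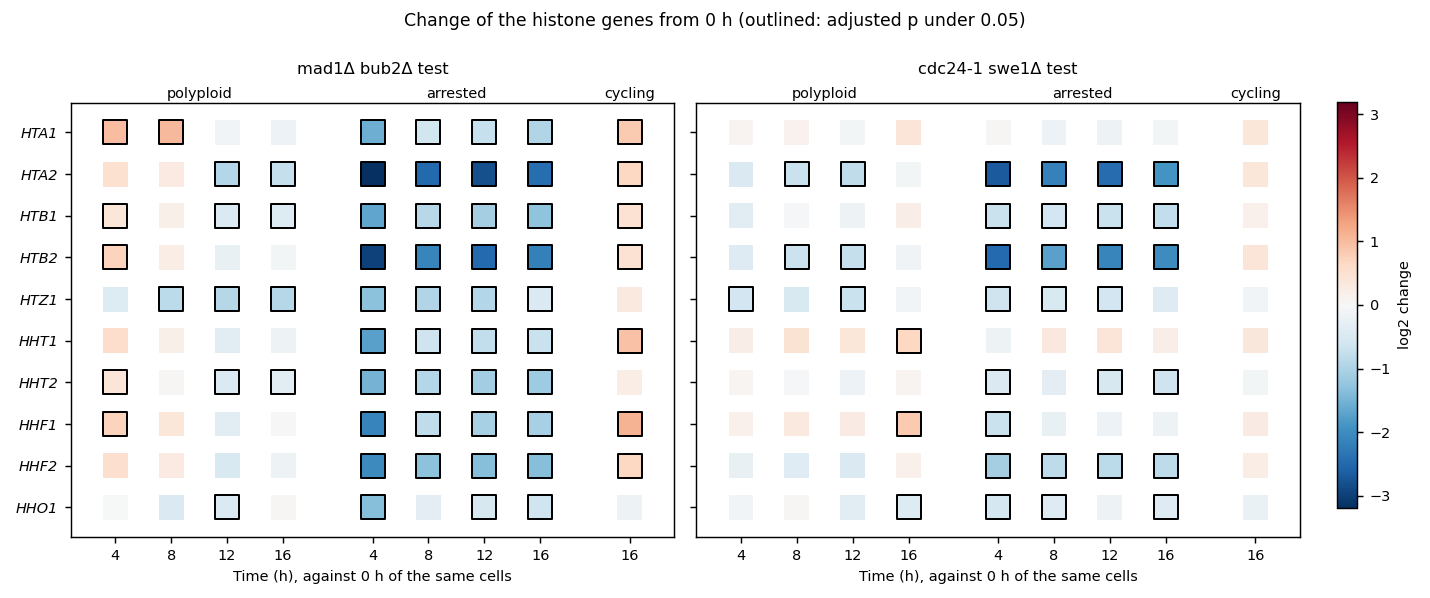
Log2 change of the 10 histone genes from 0 h of the same cells (color) at each time (h) in polyploid, arrested and cycling cells of both tests, with an outline where the adjusted p was under 0.05. The deepest falls are those of *HTA2* and *HTB2* in arrested cells, -3.19 and -2.98 at 4 h for *MAD1 BUB2* cells and -2.70 and -2.49 for *cdc24-1 cdc20-1 swe1Δ* cells.

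In cycling *mad1Δ bub2Δ* cells 7 of the core genes were higher at 16 h than at 0 h (19.9% of genes higher) and 0 members lower. *HHF1* had 621, 772 and 401 CPM at 16 h, against 329, 303 and 196 CPM at 0 h, a log2 change of 1.12 ± 0.24 (SE, adjusted p = 0.000845). All cultures at 16 h exceeded all at 0 h. *HTA1* had 637, 779 and 448 CPM at 16 h, against 427, 376 and 244 CPM at 0 h, a log2 change of 0.83 ± 0.21 (SE, adjusted p = 0.00337). *HHT1*, the partner of *HHF1* in the divergent pair, changed by 0.93 ± 0.25 (SE, adjusted p = 0.00441). The change over 16 h was lower in polyploid than in cycling cells for 8 members (21.8% of genes lower), and the difference was -1.42 ± 0.33 (SE, adjusted p = 0.00107) for *HTA2* and -1.23 ± 0.28 (SE, adjusted p = 0.000909) for *HTZ1*. Polyploid cells were in nocodazole and cycling cells in DMSO, so drug and polyploidization cannot be told apart in this difference. *HHF2* (-0.84, adjusted p = 0.0638) and *HHO1* (0.20) did not pass the test. These counts depended on single cultures and on the scaling. Without the cycling culture of replicate 2 the change in cycling cells was called for 1 member, and without the polyploid culture of replicate 2 the difference was called for 4. On library totals the 2 counts were 4 and 3. On log2 TPM they were 2 (1 higher, 1 lower) and 1 (higher), where the median of all genes fell by 0.38 in cycling cells and the median difference was 0.82.

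In arrested *cdc24-1 cdc20-1 swe1Δ* cells, held in mitosis by loss of the activator Cdc20 and not by a drug, *HTA2* and *HTB2* again fell furthest. Of the members, 8, 6, 6 and 6 were lower at 4, 8, 12 and 16 h than at 0 h (20.7%, 25.5%, 26.4% and 23.9% of the 6028 genes tested lower), and 0 were higher. The core genes had a median log2 change of -0.70, -0.47, -0.64 and -0.73, with all genes between -0.02 and 0.07. Their sum was 1486 ± 152 CPM at 4 h and 1608 ± 162 CPM at 16 h, against 2309.6 ± 217 CPM at 0 h (SD, n = 3). At 16 h it was 1791 CPM in the library with *SWE1* counts and 1485 and 1547 CPM in the other cultures. Without that library 5 members were lower at 16 h (24.1% of genes lower), and the median change of the core genes was -0.81. The polyploid strain had 3189 ± 648 CPM at 0 h.

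**Figure D3:**
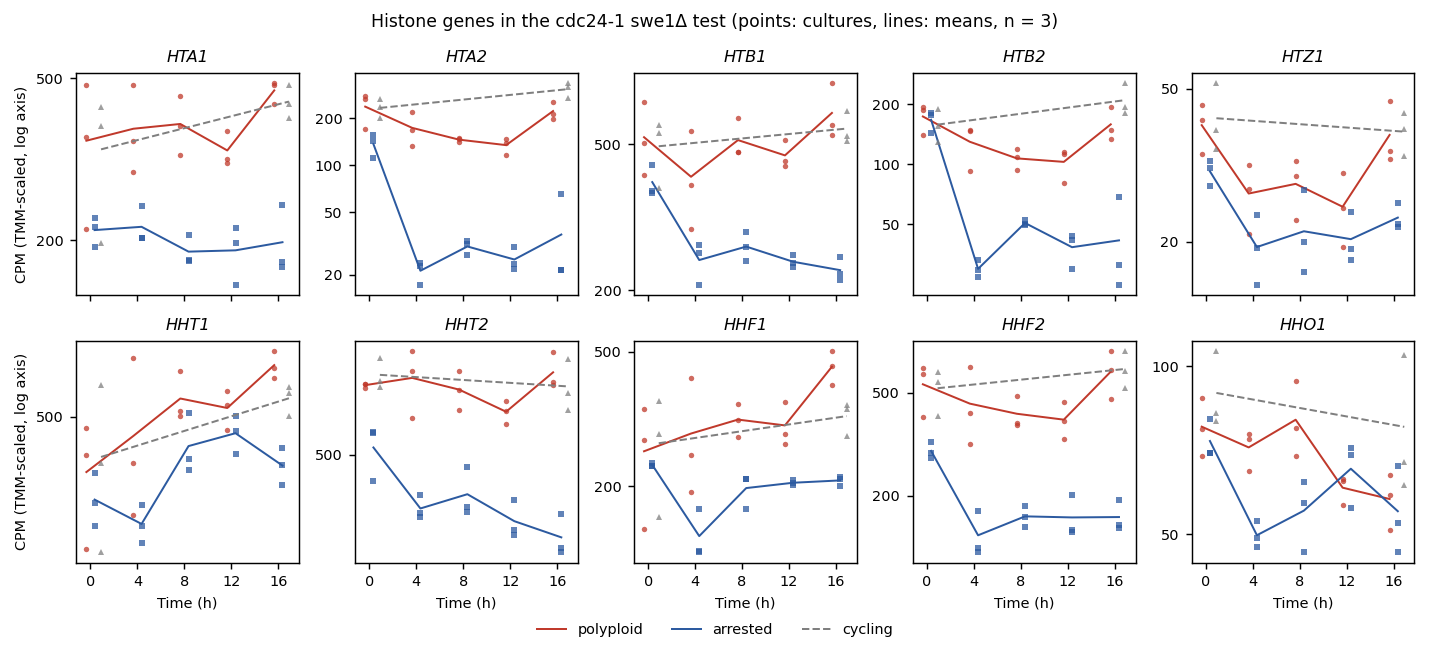
Levels of the 10 histone genes (CPM after TMM scaling, log axis) against time (h) in polyploid (red circles), arrested (blue squares) and cycling cells (grey triangles) of the *cdc24-1 swe1Δ* test, with each culture as a point and means of 3 cultures as lines. *HTA2* and *HTB2* fell in arrested cells by 4 h, while *HTA1* and *HHT1* passed the test at no time. The arrested culture at 16 h that stands above the others for *HTA2* and *HTB2* is the library with *SWE1* counts.

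*HTA2* had 17.2, 23.8 and 22.6 CPM at 4 h and 21.4, 65.7 and 21.3 CPM at 16 h in arrested cells, against 112, 156 and 143 CPM at 0 h. The value of 65.7 CPM belongs to the library with *SWE1* counts. Its log2 change was -2.70 ± 0.29 (SE, adjusted p = 1.05e-08) at 4 h and -1.91 ± 0.28 (SE, adjusted p = 1.29e-06) at 16 h, and -2.68 at 16 h without that library. *HTB2* had 33.0, 29.3 and 27.0 CPM at 4 h and 31.1, 68.4 and 24.7 CPM at 16 h, against 144, 182 and 177 CPM at 0 h. Its change was -2.49 ± 0.26 (SE, adjusted p = 8.76e-09) at 4 h and -2.01 ± 0.26 (SE, adjusted p = 1.76e-07) at 16 h, and -2.58 without that library. Both genes were lower at all 4 times.

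Other members fell by less or did not pass the test. *HTB1* and *HHF2* were lower at every time, with -0.71 and -1.08 at 4 h and -0.80 and -0.85 at 16 h. Without the library with *SWE1* counts the 16 h values were -0.86 (adjusted p = 0.00128) for *HTB1*, -0.97 (adjusted p = 0.00176) for *HHF2* and -0.76 (adjusted p = 0.000289) for *HHT2*, all lower. *HHF2* had 121, 175 and 126 CPM at 4 h, against 281, 322 and 291 CPM at 0 h, with no overlap between the cultures. *HHT2* was lower at 4, 12 and 16 h (-0.67 at 16 h), *HTZ1* at 4, 8 and 12 h (-0.66 at 4 h), *HHO1* at 4, 8 and 16 h (-0.56 at 4 h) and *HHF1* at 4 h (-0.70). *HTA1* had 202, 242 and 203 CPM at 4 h, against 192, 227 and 216 CPM at 0 h, and changed by 0.03 ± 0.24, -0.18 ± 0.24, -0.17 ± 0.24 and -0.10 ± 0.24 (SE) over the 4 times. *HHT1* had 292, 342 and 314 CPM at 4 h, against 314, 393 and 346 CPM at 0 h, and changed by -0.15 ± 0.21 at 4 h and 0.41 ± 0.21 at 12 h. *HTA1* and *HHT1* passed the test at no time. *HHO1* at 16 h was at -0.42 and called, but at -0.31 (adjusted p = 0.18) without the library with *SWE1* counts. Without the arrested culture of replicate 1 there were 17 calls in place of 26. Library totals gave 11 calls (1 higher, 10 lower) and log2 TPM 12 (3 higher, 9 lower), where the median of all genes had moved by up to 0.41 and 0.62.

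Polyploid *cdc24-1 swe1Δ* cells changed in few histone transcripts. Their core genes summed to 3031 ± 846, 3122 ± 362, 2876 ± 205 and 3900.5 ± 386 CPM at 4, 8, 12 and 16 h, against 3189 ± 648 CPM at 0 h (SD, n = 3). At 4, 8 and 12 h 1, 2 and 3 members were lower (11.7%, 14.2% and 20.2% of genes lower) and 0 higher. At 16 h 2 were higher (26.0% of genes higher) and 1 lower (23.4% of genes lower). None of these counts lay more than 1 member above the share of all genes.

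*HTA2* had 148, 149 and 141 CPM at 8 h, against 276, 169.8 and 267 CPM at 0 h, a log2 change of -0.70 ± 0.26 (SE, adjusted p = 0.0386). At 12 h *HTA2* had -0.82 ± 0.26 (SE, adjusted p = 0.0117) and *HTB2* -0.76 ± 0.25 (SE, adjusted p = 0.0126), both lower. *HTZ1* was lower at 4 h (-0.59 ± 0.21, SE, adjusted p = 0.0314) and 12 h (-0.71 ± 0.21, SE, adjusted p = 0.00725). At 16 h the pair *HHT1–HHF1* was higher. *HHF1* had 399, 504 and 454 CPM, against 274, 149.5 and 338 CPM at 0 h, with all cultures at 16 h above all at 0 h and a log2 change of 0.83 ± 0.25 (SE, adjusted p = 0.00612). *HHT1* changed by 0.66 ± 0.21 (SE, adjusted p = 0.0105), and *HHO1* was lower (-0.44 ± 0.17, SE, adjusted p = 0.0375). Of the 9 calls over the 4 times, there were 1 without the polyploid culture of replicate 1, 4 without that of replicate 2 and 5 without the single library rich in ribosomal RNA. Library totals gave 5 calls and log2 TPM 8, all higher, where the median of all genes had moved by up to 0.65, and *HHO1* at 16 h was at 0.0098 and 0.19 on these scales.

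The difference in change between polyploid and arrested cells of the *cdc24-1 swe1Δ* test was called most often for *HTA2* and *HTB2*. Both had a higher change in polyploid cells at each time, and they were the only 2 members called at 4, 8 and 12 h (4.33%, 11.2% and 8.56% of genes higher). At 16 h *HTB1*, *HHT2* and *HHF2* were called as well, 5 members in all (4.35% of genes higher). The difference for *HTA2* was 2.25 ± 0.38 (SE, adjusted p = 0.000312) at 4 h and 1.81 ± 0.38 (SE, adjusted p = 0.0018) at 16 h. For *HTB2* it was 2.07 ± 0.35 (SE, adjusted p = 0.000315) at 4 h and 1.88 ± 0.35 (SE, adjusted p = 0.000676) at 16 h. Without the library with *SWE1* counts the differences at 16 h were 2.58 and 2.45, and 5 members were again called (5.89% of genes higher). At 16 h *HTB2* had 133, 195 and 148 CPM in polyploid cells, against 31.1, 68.4 and 24.7 CPM in arrested cells, so that every polyploid culture lay above every arrested one. At that time *HTB1* differed by 1.02 ± 0.27 (SE, adjusted p = 0.0116), *HHF2* by 1.01 ± 0.31 (SE, adjusted p = 0.0317) and *HHT2* by 0.76 ± 0.21 (SE, adjusted p = 0.0172). Without that library these were 1.08 (adjusted p = 0.0103), 1.13 (adjusted p = 0.021) and 0.86 (adjusted p = 0.00838), in the same order. The 11 calls became 7 without the polyploid culture of replicate 2 and without the arrested culture of replicate 1 or 3, 7 on library totals and 6 on log2 TPM.

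Cycling *cdc24-1 swe1Δ* cells gave 0 calls among the members between 16 and 0 h (13.6% of genes in either direction) in edgeR's quasi-likelihood test, 0 at an unadjusted p under 0.05 and 0 by DESeq2 or limma. The largest value was 0.41 ± 0.24 (SE, adjusted p = 0.28) for *HTB2*. The difference in change over 16 h between polyploid and cycling cells likewise gave 0 calls by the same 3 tools (38.0% of genes in either direction), with 0 at an unadjusted p under 0.05. *HHF1* had 282, 348 and 338 CPM at 16 h in cycling cells, against 285, 163 and 357 CPM at 0 h, with overlap between the cultures. The members' differences ran from -0.54 (*HTB2*) to 0.56 (*HHF1*).

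The share of each family's transcripts that came from one of its copies was taken from TPM within a library, which does not depend on the scaling between libraries. *HTA2* supplied 24.0% ± 0.888 of H2A transcripts in arrested *MAD1 BUB2* cells at 4 h and 26.2% ± 4.19 at 16 h, against 49.2% ± 2.91 at 0 h (SD, n = 3). In arrested *cdc24-1 cdc20-1 swe1Δ* cells it supplied 8.94% ± 1.09 at 4 h and 14.3% ± 5.93 at 16 h, against 39.1% ± 2.04 at 0 h. Its share at 16 h was 21.2% in the library with *SWE1* counts and 11.1% and 10.8% in the other cultures. *HTB2* supplied 17.4% ± 0.627 of H2B transcripts at 4 h, against 34.1% ± 2.35 at 0 h, in the *MAD1 BUB2* strain and 11.1% ± 2.30 at 4 h, against 29.8% ± 2.32 at 0 h, in the *cdc20-1* strain. In both arrested strains no culture at a later time overlapped those at 0 h for either gene. The same held there for *HHT2* in H3 and *HHF2* in H4, and for 56 of 72 comparisons over all cells and families. In arrested *MAD1 BUB2* cells at 4 h the *HHT2* share was higher, 66.33% against 62.85% at 0 h. The *HHF2* share was 64.69% against 62.79%. Both were lower than at 0 h at the later times.

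**Figure D4:**
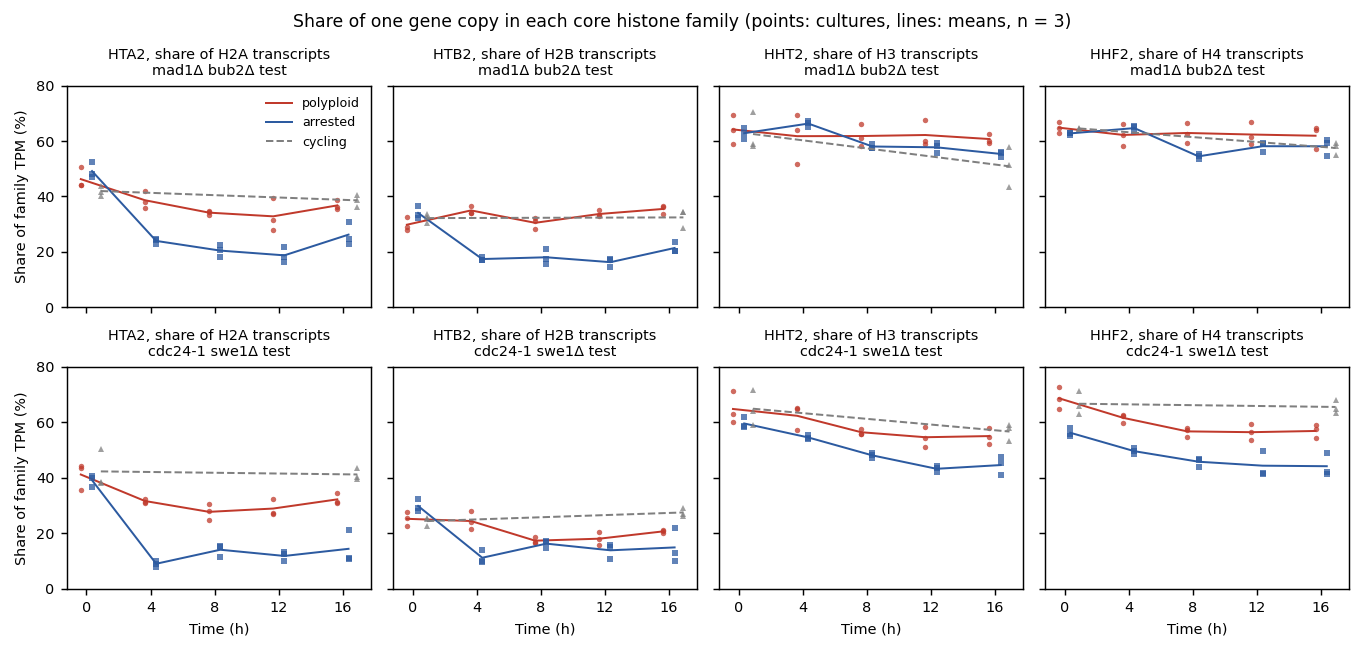
Share (%) of *HTA2* in H2A, *HTB2* in H2B, *HHT2* in H3 and *HHF2* in H4 transcripts (TPM) against time (h) in polyploid (red circles), arrested (blue squares) and cycling cells (grey triangles) of both tests, with cultures as points and means of 3 as lines. The *HTA2* share in arrested cells was 24.0% ± 0.888 and 8.94% ± 1.09 at 4 h (SD), below all 0 h cultures.

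Polyploid cells showed a smaller shift of the same kind for H2A. The *HTA2* share was 32.8% ± 5.87 at 12 h, against 46.3% ± 3.85 at 0 h, in *mad1Δ bub2Δ* cells and 28.9% ± 2.90 at 12 h, against 41.2% ± 4.84 at 0 h, in *cdc24-1 swe1Δ* cells. The *HTB2* share was 33.7% ± 1.18 at 12 h, against 29.8% ± 2.44 at 0 h, in the polyploid cells with *mad1Δ bub2Δ*, and 18.0% ± 2.36 at 12 h, against 25.2% ± 2.68 at 0 h, in polyploid *cdc24-1 swe1Δ* cells. For H3 the share of *HHT2* in arrested *cdc24-1 cdc20-1 swe1Δ* cells was 44.6% ± 3.38 at 16 h, against 59.6% ± 1.94 at 0 h. For H4 the share of *HHF2* there was 44.2% ± 4.13, against 56.3% ± 1.52, with the limit on telling H4 copies apart given above. At 16 h the library with *SWE1* counts had shares of 47.5% (*HHT2*) and 48.9% (*HHF2*), and the other cultures 45.3% and 40.9% (*HHT2*) and 41.3% and 42.3% (*HHF2*). In 72 comparisons of a later time with 0 h, 3 against 3 cultures, the exact two-sided permutation test allowed no p below 0.1 and no Benjamini-Hochberg adjusted p below 0.129, so the test cannot call any of these shifts at this number of cultures.

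Histone transcripts were also set against ploidy itself. The coefficient of mean DNA content per 100000 arbitrary units, over the 36 libraries of a test, passed a Bonferroni-adjusted threshold of 0.05 for 0 of 10 members in either test by edgeR's quasi-likelihood test, by DESeq2 and by limma, against 3.17% of all genes with *mad1Δ bub2Δ* and 4.81% with *cdc24-1 swe1Δ*. At an unadjusted p under 0.05 there was 1 member in the *mad1Δ bub2Δ* test, *HTZ1* at -0.17 ± 0.06 (SE, log2 per 100000 units), and it also had a Benjamini-Hochberg adjusted p of 0.0363. There were 5 in the *cdc24-1 swe1Δ* test, all positive: *HHF1* (0.34 ± 0.09), *HTA1* (0.33 ± 0.10), *HTB1* (0.29 ± 0.10), *HHT2* (0.26 ± 0.09) and *HHT1* (0.23 ± 0.07), whose Benjamini-Hochberg adjusted p ran from 0.00315 to 0.0300. The share of all genes was not taken at these looser thresholds, and the shares above belong to the Bonferroni threshold alone. With cell type as a covariate, or in polyploid cells alone, the Bonferroni count was also 0. The libraries of the *mad1Δ bub2Δ* test did not lie on a line. Core histone transcripts of polyploid cells summed to 4294 to 5718 CPM at 4 h and to 2532 to 3057 CPM at 16 h, where mean DNA content was 239 ± 37.7 and 442 ± 14.5 kAU. Arrested and cycling cells, of similar DNA content, stood far apart at 16 h, with 1364 ± 125 CPM in arrested cells and 5235 ± 1046 CPM in cycling cells (SD, n = 3 each).

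**Figure D5:**
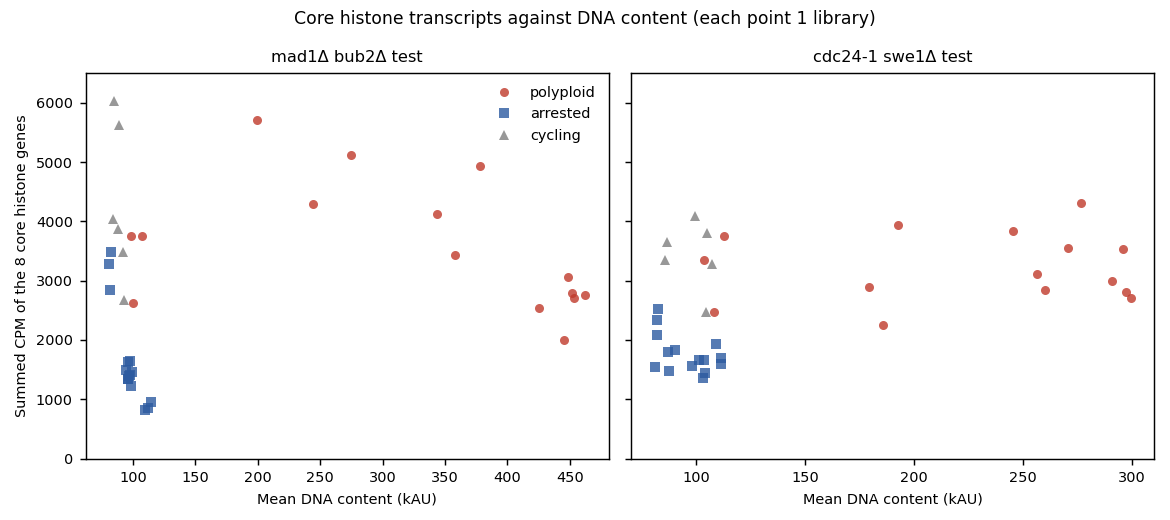
Summed CPM of the 8 core histone genes against mean DNA content (kAU) in each library of the *mad1Δ bub2Δ* test (left) and the *cdc24-1 swe1Δ* test (right), for polyploid (red circles), arrested (blue squares) and cycling cells (grey triangles). Arrested and cycling libraries share the low DNA contents. In the *mad1Δ bub2Δ* test their mean levels were near each other at 0 h (3202 and 3348 CPM) and apart at 16 h (1364 and 5235 CPM).

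The members varied together across libraries, as a description over 72 libraries that share conditions and strains. Pearson's r of log2 CPM with the mean of the 8 core genes, which includes the gene itself for these 8, was highest for *HHF2* (0.986) and *HTB1* (0.979) and lowest among the core genes for *HHT1* (0.804). For *HHT1* it was 0.932 within the 36 libraries with *mad1Δ bub2Δ* or *MAD1 BUB2* and 0.587 within the 36 of the other test. It was 0.713 for *HTZ1* and 0.550 for *HHO1*. Partners of a divergent pair had r of 0.963 (*HTA2* and *HTB2*), 0.922 (*HTA1* and *HTB1*), 0.943 (*HHT1* and *HHF1*) and 0.949 (*HHT2* and *HHF2*). Copies of the same histone had r of 0.843 (H2A), 0.904 (H2B), 0.709 (H3) and 0.883 (H4), lower than the partners across the promoter in each case. Core genes that share neither a promoter nor a histone ran from 0.623 (*HTB2* and *HHT1*) to 0.962 (*HTB1* and *HHF2*). Among these, *HTA2* and *HHF2* (0.958) and *HTB1* and *HHT2* (0.952) also lay above every partner value but that of *HTA2* and *HTB2*. Partners were therefore not always the closest members. Of 6138 other genes, the 5 closest to the core mean were *VMA10* (0.872), *GBP2* (0.869), *OPI1* (0.849), *SPC19* (0.846) and *SEC53* (0.842).

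Genes that act on histones are given as counts of lists and a few named genes. Of 12 regulators of histone transcription (the HIR complex, *ASF1*, *RTT106*, *SPT10*, *SPT21*, *YTA7* and the SBF and MBF genes), 8 were higher and 0 lower in polyploid *mad1Δ bub2Δ* cells at 16 h (23.2% of genes higher), and 9 higher and 0 lower in polyploid *cdc24-1 swe1Δ* cells (26.0% of genes higher). In arrested cells 1 of the 12 with *MAD1 BUB2* and 2 with *cdc24-1 cdc20-1 swe1Δ* were higher at 16 h and 0 lower, where 31.7% and 28.0% of genes were higher. Without the library with *SWE1* counts the second number was also 2. The difference in change between polyploid and arrested cells at 16 h was called, as higher, for 4 of the 12 with *mad1Δ bub2Δ* (11.3% of genes) and 3 with *cdc24-1 swe1Δ* (4.35% of genes), or 4 of 12 without the library with *SWE1* counts (5.89% of genes). *HIR2*, a subunit of the HIR corepressor, had 1.07 ± 0.24 (SE, adjusted p = 0.00332) in the *cdc24-1 swe1Δ* test and 0.36 ± 0.24 (SE, adjusted p = 0.298) in the *mad1Δ bub2Δ* test. *SWI6*, the shared subunit of SBF and MBF, had 0.95 ± 0.24 (SE, adjusted p = 0.0038) with *mad1Δ bub2Δ* and 0.61 ± 0.23 (SE, adjusted p = 0.0854) with *cdc24-1 swe1Δ*. *SWI4*, the DNA-binding subunit of SBF, had 0.72 (adjusted p = 0.0209) and 0.80 (adjusted p = 0.0524), and the histone chaperone gene *ASF1* 0.78 (adjusted p = 0.0365) and -0.08 (adjusted p = 0.885), each in the *mad1Δ bub2Δ* and then the *cdc24-1 swe1Δ* test. Without the library with *SWE1* counts *HIR2* was at 1.05 (adjusted p = 0.00621), *SWI6* at 0.77 (adjusted p = 0.0273), *SWI4* at 0.72 (adjusted p = 0.0968) and *ASF1* at -0.24 (adjusted p = 0.579).

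Genes that handle histones after synthesis were compared in the same way. Among 12 chaperones and histone acetyltransferase genes, 2 had a higher change in polyploid cells of the *mad1Δ bub2Δ* test at 16 h (11.3% of genes higher) and 0 with *cdc24-1 swe1Δ* (4.35% of genes higher), and 0 had a lower one. At an unadjusted p under 0.05 the *cdc24-1 swe1Δ* test had 3 of 12, and without the library with *SWE1* counts the called number was 0 and the unadjusted one 5. Of the 6100 genes tested without that library, 1767 had an unadjusted p under 0.05. With the library kept, the share of all genes at that threshold was not taken. *RTT109*, an acetyltransferase of newly made H3, had 0.88 ± 0.30 (SE, adjusted p = 0.0308) and was lower in arrested *MAD1 BUB2* cells (-0.91 ± 0.21, SE, adjusted p = 0.000529). *RLF2*, the large subunit of the chromatin assembly factor CAF-1, was higher at 16 h in polyploid cells of both tests (0.60 and 1.15). It was also higher in arrested *cdc24-1 cdc20-1 swe1Δ* cells at 16 h without the library with *SWE1* counts (0.66, adjusted p = 0.0019). The difference for *CHZ1* was 0.77 with *cdc24-1 swe1Δ*, or 0.88 (adjusted p = 0.0611) without that library, and for *MSI1* -0.71 with *mad1Δ bub2Δ*. Neither was called. Of the 10 genes of the SWR1 complex and its partner *BDF1*, which place H2A.Z, 1 had a higher change in each test and 0 a lower one, against 11.3% and 4.35% of genes higher. These were *BDF1* with *mad1Δ bub2Δ* (0.66 ± 0.21, SE, adjusted p = 0.0194) and the ATPase gene *SWR1* with *cdc24-1 swe1Δ* (0.82 ± 0.24, SE, adjusted p = 0.0232, and 0.95, adjusted p = 0.0101 without the library with *SWE1* counts). The largest difference of this list went the other way and was not called. It was that of *SWC7*, -2.34 with *cdc24-1 swe1Δ*, or -1.99 (adjusted p = 0.241) without that library.

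Genes of S phase and mitosis were read as marks of cell cycle position, and their part in the result was not tested. Of 14 S phase genes (replication proteins, *RNR1*, *CDC21*, *CLB5* and *CLB6*), 6 were lower and 0 higher in arrested *cdc24-1 cdc20-1 swe1Δ* cells at 4 h, and 2 lower and 0 higher in arrested *MAD1 BUB2* cells, against 20.7% and 17.9% of all genes lower. In cycling *mad1Δ bub2Δ* cells 7 of 14 were higher at 16 h (19.9% of genes higher), beside the rise of the core histone genes. In polyploid *mad1Δ bub2Δ* cells at 4 h, where 5 core histone genes were higher, 0 of the 14 were higher and 3 lower (10.9% of genes lower). At 8 h in those cells 0 were higher and 2 lower (16.0% of genes lower). The difference in change between polyploid and arrested cells at 16 h was higher for 2 of 14 with *mad1Δ bub2Δ* (11.3% of genes) and 1 with *cdc24-1 swe1Δ* (4.35% of genes, and 1 without the library with *SWE1* counts), and lower for 0. *RNR1*, of ribonucleotide reductase, had a difference between polyploid and arrested cells of 1.19 ± 0.24 (SE, adjusted p = 0.00129) at 16 h with *cdc24-1 swe1Δ*, 1.12 (adjusted p = 0.00287) without that library, and 0.69 ± 0.33 (SE, adjusted p = 0.134) with *mad1Δ bub2Δ*. *POL1*, of DNA polymerase alpha, had 0.99 ± 0.25 (SE, adjusted p = 0.00497) with *mad1Δ bub2Δ* and 0.57 ± 0.21 (SE, adjusted p = 0.0721) with *cdc24-1 swe1Δ*, 0.53 (adjusted p = 0.114) without that library. The largest difference of the list, 1.59 for *CLB6* with *cdc24-1 swe1Δ*, was not called, and it was 1.47 (adjusted p = 0.1002) without that library. Of 9 mitotic genes, 9 were lower in polyploid *mad1Δ bub2Δ* cells at 8 h (16.0% of genes lower), 6 at 16 h (21.7% of genes lower), and 3 were higher in arrested *MAD1 BUB2* cells at 4 h (20.7% of genes higher). In polyploid *cdc24-1 swe1Δ* cells 5 of the 9 were higher at 12 h (24.2% of genes higher), 7 at 16 h (26.0% of genes higher) and 0 lower. In arrested *cdc24-1 cdc20-1 swe1Δ* cells 6 were higher at 16 h (28.0% of genes higher), or 7 without the library with *SWE1* counts. At 16 h 5 of the 9 had a lower change in polyploid *mad1Δ bub2Δ* than in arrested *MAD1 BUB2* cells (12.6% of genes lower), among them the kinase gene *KIN3* (-2.04 ± 0.42, SE, adjusted p = 0.000696) and the B-type cyclin gene *CLB1* (-1.85 ± 0.44, SE, adjusted p = 0.00265). Of the 9, 0 differed in the *cdc24-1 swe1Δ* test at 16 h in either direction (4.35% of genes higher and 7.53% lower), with 2 at an unadjusted p under 0.05, where *CLB1* had 0.86 and *KIN3* -0.23. Without the library with *SWE1* counts these were 0.64 (adjusted p = 0.199) and -0.41 (adjusted p = 0.243), with 0 of 9 called and 1 at an unadjusted p under 0.05. Of the 6100 genes tested without that library, 1767 had an unadjusted p under 0.05. With the library kept, the share of all genes at that threshold was not taken.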

How the data were processed

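Poly(A) RNA was made into libraries with the NEBNext Ultra II kit and sequenced by the study. The authors aligned the reads to R64 with STAR and estimated transcript abundance with Salmon in the nf-core/rnaseq workflow. They deposited gene counts as whole numbers, made from Salmon's estimated counts, and log2 TPM (transcripts scaled per length and library). The tool versions are not given in the sources used here. No column of the tables belonged to a sample outside the 72.

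From the deposited counts, each test's 36 libraries were fitted with 1 coefficient per condition by edgeR's quasi-likelihood test (edgeR 4.0.16, R 4.3.3), after filterByExpr and TMM scaling, with Benjamini-Hochberg adjustment per contrast over all genes tested. The slope on DNA content, taken from the sample labels, used Bonferroni adjustment. CPM carry the TMM scaling, and log2 CPM for correlations used a prior count of 2. Copy shares and levels per length came from the deposited log2(TPM + 1), which limma also tested. DESeq2 1.42.0 and limma 3.58.1 were alternatives, with other scalings, filters, thresholds, subsets and single cultures left out. The fits were also run on simulated counts, and the outcome is not given here. Simulated libraries were drawn independently of each other, so that run does not bear on repeated samples of a culture. Groups were taken from the labels.

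The study's methods state that the time points of a kind of cells were samples of the same culture. Neither they nor the labels state that the replicate number names the culture, so the fit has no term for it. The fit treats libraries of different times as independent, so its p-values take no account of repeated samples of a culture. Each condition rests on 3 cultures of a strain.

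All 10 members are named, with the counts of 5 lists and the 5 other genes closest to the mean of the core genes. The named genes of a list are from the 4 with its largest absolute difference in change at 16 h in either test. Not all 4 are named for each list. Members and lists were chosen with earlier results of these data known. Sequences and positions are from RefSeq R64, the assembly release the authors used.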

Additional observations from a re-analysis of the deposited data

Results flagged for a closer look

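The differences of changes between kinds of cells are collected here because the test of the difference itself passed the threshold of adjusted p (edgeR's quasi-likelihood test). Each value is the log2 difference at the time with the largest one that was called. In the *mad1Δ bub2Δ* test, polyploid minus arrested at 4 h, it was 2.57 for *HTA1*, 3.71 for *HTA2*, 2.10 for *HTB1*, 3.72 for *HTB2*, 2.31 for *HHT1*, 2.90 for *HHF1*, 1.93 for *HHT2*, 2.58 for *HHF2*, 0.88 for *HTZ1* and 1.35 for *HHO1*. The differences of all 10 were above 0 and called, against 12.0% of all genes called as higher.

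In the same test, polyploid minus cycling at 16 h, it was -1.01 for *HTA1*, -1.42 for *HTA2*, -0.92 for *HTB1*, -0.56 for *HTB2*, -1.09 for *HHT1*, -1.11 for *HHF1*, -0.59 for *HHT2* and -1.23 for *HTZ1*. In the *cdc24-1 swe1Δ* test, polyploid minus arrested, it was 2.25 for *HTA2* and 2.07 for *HTB2* at 4 h, and 1.02 for *HTB1*, 0.76 for *HHT2* and 1.01 for *HHF2* at 16 h (1.08, 0.86 and 1.13 without the arrested library with *SWE1* counts). The arrested strain differed from the polyploid strain in genotype in both tests, and by mating type in the *cdc24-1 swe1Δ* test, so that strain and arrest cannot be told apart.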

How the results depend on the processing

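Of 172 values of the 12 counts of calls under alternatives, 140 stayed within 1.5 times the main count and 32 moved. Single genes were followed at 4 and 16 h alone, and their calls at 8 and 12 h were not examined in this way. Of 1114 values for the 85 called results of single genes at 4 and 16 h, 894 kept direction and call. A further 208 kept direction without the call and 12 changed direction. With Bonferroni adjustment the counts in the *mad1Δ bub2Δ* test were 0 for polyploid, 22 for arrested and 0 for cycling cells, 15 for polyploid minus arrested and 0 for polyploid minus cycling. Those of the *cdc24-1 swe1Δ* test were 0 for polyploid and 8 for arrested cells and 3 for the difference. On library totals without TMM the counts for polyploid, cycling and polyploid minus cycling in the *mad1Δ bub2Δ* test were 9, 4 and 3, and for polyploid, arrested and their difference in the *cdc24-1 swe1Δ* test 5, 11 and 7. With limma on log2 TPM they were 8, 2 and 1 in the *mad1Δ bub2Δ* test, and 12 for arrested cells and 6 for the difference in the *cdc24-1 swe1Δ* test. Cycling *mad1Δ bub2Δ* cells fitted alone gave 2 calls. The slope on DNA content was called for 1 member of the *mad1Δ bub2Δ* test and 5 of the *cdc24-1 swe1Δ* test under Benjamini-Hochberg adjustment. The share of all genes was not taken at that threshold. Without the library richest in ribosomal RNA, chosen after seeing the data, polyploid *cdc24-1 swe1Δ* cells had 5 calls, *HTZ1* at 4 h had adjusted p = 0.052 and *HHO1* at 16 h 0.0526.

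With 1 culture left out at a time the counts ran from 9 to 13 (polyploid), 32 to 36 (arrested), 1 to 5 (cycling), 23 to 29 (polyploid minus arrested) and 4 to 9 (polyploid minus cycling) in the *mad1Δ bub2Δ* test. In the *cdc24-1 swe1Δ* test they ran from 1 to 6 (polyploid), 17 to 21 (arrested) and 7 to 12 (difference), with 0 throughout for the slopes in both tests and for cycling and polyploid minus cycling. A culture left out, here and above, means all libraries of 1 replicate number in that kind of cells. Whether the replicate numbers pair the libraries was not settled. In polyploid *mad1Δ bub2Δ* cells replicate 3 had the lowest core histone sum at every time. In polyploid *cdc24-1 swe1Δ* cells the replicate with the lowest sum changed between times. Deviations of same-numbered libraries from their condition means had a median r of 0.0266 over 126 pairs, 36 of them above 0.1. Of 72 libraries, 33 were closest on average to their own among the 3 numbers. With the replicate number as a block, the *mad1Δ bub2Δ* test had 23, 39 and 7 calls in polyploid, arrested and cycling cells, 34 for polyploid minus arrested and 9 for polyploid minus cycling. The *cdc24-1 swe1Δ* test had 10 in polyploid, 26 in arrested and 0 in cycling cells, and 12 and 0 for the differences. The slopes had 0 calls with the block, and it ended none of the 85 calls.

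The 12 reversals all came with a shift of all genes. On log2 TPM with limma, in the *mad1Δ bub2Δ* test at 16 h, *HHT2* in polyploid cells was at 0.070. In arrested cells *HHT1* was at 0.037, *HTZ1* at 0.25 and *HHO1* at 0.10. In cycling cells *HTB1* was at -0.034 and *HTB2* at -0.0205, and for polyploid minus cycling *HTB1* was at 0.027, *HTB2* at 0.39 and *HHT2* at 0.36. In the *cdc24-1 swe1Δ* test at 16 h, *HHO1* was at 0.19 in polyploid and 0.17 in arrested cells, and at 0.0098 in polyploid cells on library totals. The median of all genes ran from -0.42 to 0.52 on library totals and from -0.86 to 0.83 on log2 TPM over the contrasts. Relative to it all 143 member calls kept their direction under both and under DESeq2 size factors. A change of scaling moves the genes of a contrast nearly alike, so subtracting the median nearly returns the main values. That count was therefore nearly fixed in advance and is no check on the calls. Each condition rests on 3 cultures, and the split between near-identical copies rests on Salmon's estimation. The cause of the moved counts was not tested.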
